A study of Mus musculus with 18 samples.

Results

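The genes described here are 43 interferon response and antigen presentation genes of the mouse. They were taken by name from the deposited count table, which lists 21967 genes, and all 43 were found in it. They comprise 4 receptor chains, 4 transcription factors, 3 nucleic acid sensors, 19 antiviral effectors, 5 enzymes of the ubiquitin, ISG15 and ADP-ribose systems, and 8 genes of peptide supply and MHC class I. After a filter on low counts 41 of them were tested in the fit of all libraries, with Mx1 and Ifit3 left out at 56 and 14 counts over all 18 libraries. In CFU-E alone 40 were tested, because Ifitm1 also fell below the filter there.

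The libraries were made from PreCFU-E, an early progenitor of red cells, and CFU-E, the colony-forming progenitor that follows it, and they compared mice that differ in Scf, which encodes stem cell factor, the ligand of the receptor Kit. Both cell types came from bone marrow that was first enriched for c-Kit and then stained for lineage antigens, CD105, CD150, CD41, CD16/32 and Sca1. The protocol text is headed as a nuclear extraction, while it describes sorted cells and total RNA, so the values are given as RNA of the sorted material. FL/FL mice carry floxed copies of Scf with no Cre, KO/FL mice carry 1 null and 1 floxed copy, and KO/FL;Lepr-Cre mice, called Lepr-Cre mice below, carry the same 2 alleles and Cre driven from the leptin receptor locus. That locus is active in stromal cells of the marrow, so the floxed copy is removed from the surroundings of these progenitors. No agent was given, and strain and age are not stated in the labels used here. There were 3 mice of each genotype, lettered A, B and C, and each mouse gave 1 library of each cell type, so every group held 3 libraries from 3 separate mice. Mice A and C were male and mouse B was female in every genotype, so that sex and the letter B cannot be told apart.

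Interferons are secreted proteins that bind 2-chain receptors on the cell surface. Type I interferons act through IFNAR1 and IFNAR2 and lead to a complex that holds STAT2 and IRF9 and binds the interferon-stimulated response element. Interferon gamma acts through IFNGR1 and IFNGR2 and reaches its genes through the gamma-activated site, and IRF1 carries part of that response onward. Many of the genes so induced block viral replication, while others supply peptides to MHC class I molecules, which display them to T cells. Blood progenitors express some of these genes without infection, and erythroid cells lose most of their MHC class I as they mature.

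Promoter stretches that hold such elements are shown for 6 members, which include well-known interferon targets. Irf1, B2m and Gbp7 are also among the 8 leading members of the shared variation described below. Of the other leading members, Tap1, H2-D1 and H2-K1 had no match of either motif in their promoters. Parp9 and Parp14 had no promoter entry. The sequences are from RefSeq on GRCm38.p6, run 5′ to 3′ along the gene's own strand and end upstream of the first transcribed base. Capitals mark the letters of a matched motif. The motifs were GAAANNGAA, the core of the interferon-stimulated response element, and TTCNNNGAA, the gamma-activated site, both searched on both strands, so that the first can also be read as its reverse complement.
Irf1, chr11:53769914-53769942, plus strand: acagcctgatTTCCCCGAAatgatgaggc
B2m, chr2:122147538-122147566, plus strand: ataagaacatGAAACTGAAaatgggaaag
Gbp7, chr3:142530220-142530302, plus strand: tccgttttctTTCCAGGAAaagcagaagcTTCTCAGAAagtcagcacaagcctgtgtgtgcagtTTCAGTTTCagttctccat
Gbp3, chr3:142559990-142560024, plus strand: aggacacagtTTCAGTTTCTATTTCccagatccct
Ifit1, chr19:34640770-34640823, plus strand: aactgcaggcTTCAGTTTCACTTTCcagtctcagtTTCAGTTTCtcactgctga
Isg15, chr4:156200866-156200906, minus strand: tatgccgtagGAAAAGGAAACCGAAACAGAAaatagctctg
Irf1 and B2m hold 1 match each, of a different motif. Gbp7 holds both motifs. In Gbp3, Ifit1 and Isg15 the matches of GAAANNGAA overlap or repeat.

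Of the 43 members, 35 had a promoter in the RefSeq table, counted from 250 bases before to 50 after the start of the gene. GAAANNGAA was found in 17 of the 35, or 48.6%, against 9.76% of all 27025 genes with a promoter. TTCNNNGAA was found in 9 of the 35, or 25.7%, against 9.55% of all genes. The first motif was found in 12 of 16 antiviral effectors and in both sensors with a promoter, but in 1 of 7 genes of peptide supply and MHC class I, which was B2m, and in none of the 4 receptor genes. These matches are descriptions of the letters in the window and do not show that a factor binds there. Mx1, Usp18, Tap2, Parp9, Parp14, Rtp4, Zbp1 and Ifi27 had no entry.

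Library totals ran from 3541066 to 9389122 counts, and 10782 to 13536 genes had a count, with the fewest in the Lepr-Cre B library of CFU-E. The sorted identity was checked on marker genes. Levels are counts per 1000000 of the library's scaled size (CPM). Gata1 stood at 174 to 302 CPM, Klf1 at 228 to 346 CPM and Kit at 211 to 848 CPM in all 18 libraries. Siglech, Itgax, Cd3e, Cd8a, Ncr1, Elane and Ctsg, which mark dendritic, T, natural killer and granulocytic cells, were at 0 in all 18, and Ly6a, which encodes Sca1, was too. Genes that are not such markers, among them Myd88, Igtp, Ifi47 and Gbp4, were also at 0 in all 18. Whether genes at 0 throughout were counted is not known, so a 0 does not by itself show that a cell type was absent. Other genes of the marker lists were detected, with Zbtb46 at 0.137 to 14.6 CPM in all 18 libraries and Nkg7 at up to 6.35 CPM. Prtn3 reached 3.72 CPM, Lck 2.86 CPM and Mpo 0.724 CPM. The summed levels were 0.553 to 6.24 CPM for 10 macrophage markers and 0.287 to 3.87 CPM for 12 neutrophil and monocyte markers. They were 1.57 to 15.8 CPM for 10 dendritic cell markers and 0.207 to 14.9 CPM for 9 B cell markers. For 10 T and natural killer cell markers they were 0.180 to 7.32 CPM. They were higher for 8 megakaryocyte markers, at 26.5 to 53.1 CPM with Vwf at 18.5 to 47.0 CPM, and for 8 stem cell markers, at 141 to 263 CPM. Of 14 interferon and related ligand genes, 11 had no count in any library, and Ifnk, Ifnz and Il27 had 4, 5 and 7 counts in all.

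The members differed widely in level. Per kilobase of exon, B2m, the light chain of MHC class I, was highest at 586 CPM, followed by the heavy chains H2-D1 at 151 CPM and H2-K1 at 143 CPM and the receptor chain Ifngr1 at 87.9 CPM, as means of the 18 libraries. The median over the 41 tested members was 7.33 CPM per kilobase, close to 9.04 CPM per kilobase over 10173 tested genes with a known length. Levels and differences below are in CPM, or in log2 fold change with its standard error (SE) from edgeR's quasi-likelihood test with Benjamini-Hochberg adjustment over all genes tested, and changes were called at an adjusted p under 0.05. In RNA from sorted bulk cells, fewer cells that express a gene cannot be told apart from less RNA per cell.

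**Figure D1:**
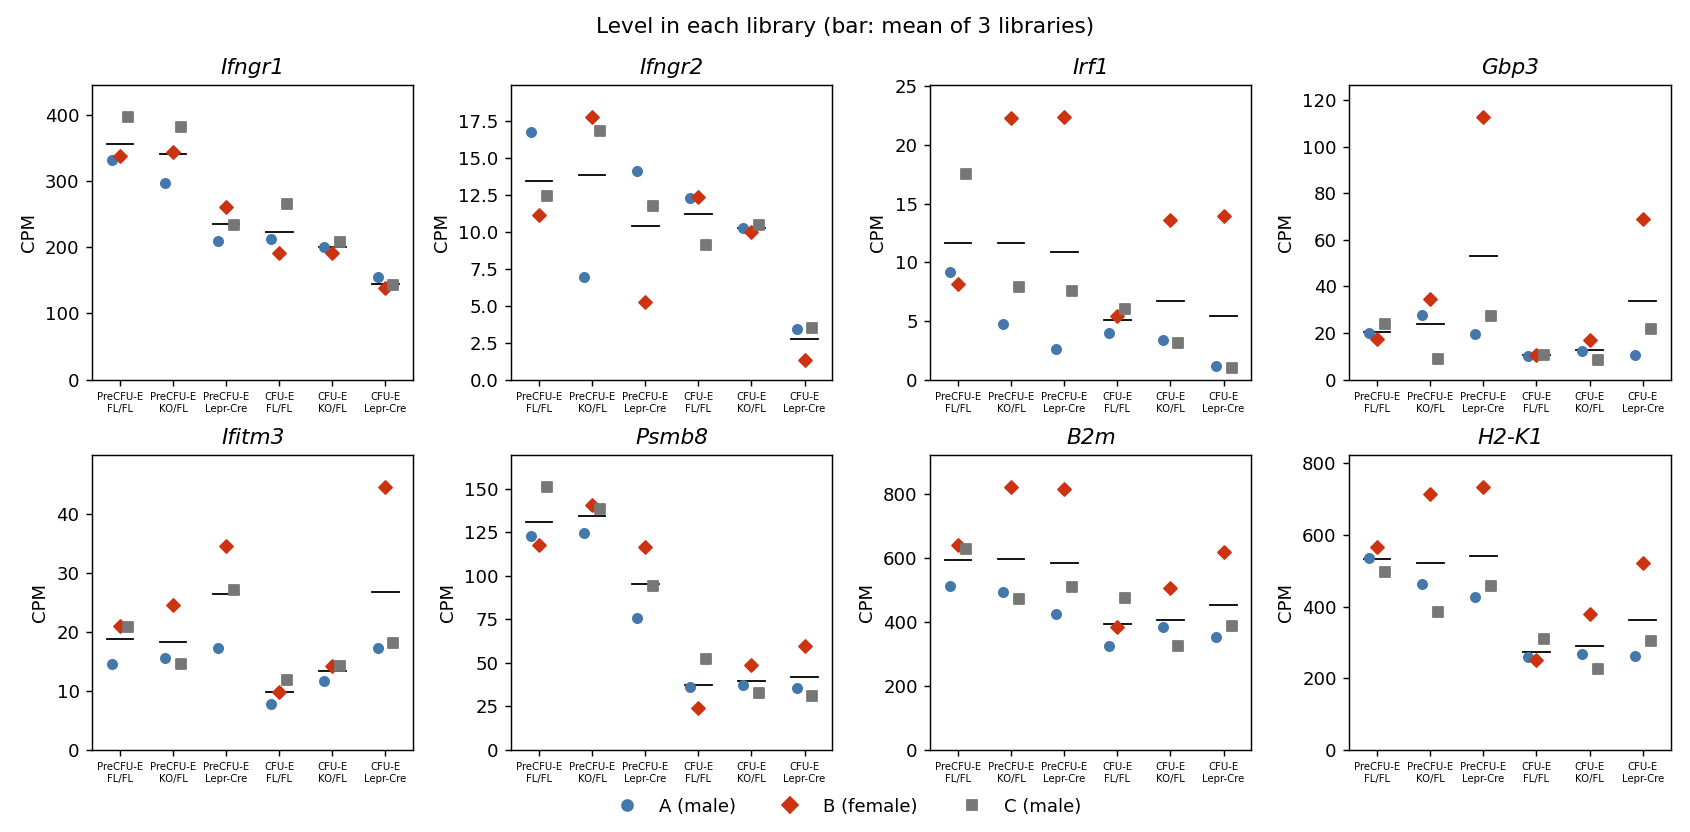
CPM of Ifngr1, Ifngr2, Irf1, Gbp3, Ifitm3, Psmb8, B2m and H2-K1 in each of the 18 libraries, by cell type and genotype on the x axis, with symbols for mice A, B and C and a bar at the mean of each 3 libraries. Ifngr1 is lowest in the Lepr-Cre libraries of each cell type, and B2m, H2-K1, Irf1 and Gbp3 are highest in mouse B of the KO/FL and Lepr-Cre groups.

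The first question was how the members differed between genotypes within a cell type. In Lepr-Cre mice the clearest difference lay in the receptor for interferon gamma: Ifngr1, its ligand-binding chain, was lower in both cell types, and Ifngr2, its signalling chain, was lower in CFU-E. Type I receptor chains did not pass the test in any genotype comparison. Few other members changed, and none changed between KO/FL and FL/FL mice.

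Ifngr1 lies on chromosome 10, on the plus strand of mm10 at chr10:19591949-19610229. In PreCFU-E it stood at 332, 339 and 398 CPM in FL/FL mice A, B and C, at 298, 345 and 382 CPM in KO/FL mice and at 210, 261 and 233 CPM in Lepr-Cre mice. Every Lepr-Cre library was below all 6 others. The means were 235 ± 25.9 CPM (SD, n = 3) in Lepr-Cre and 356 ± 36.0 CPM (SD, n = 3) in FL/FL, a log2 fold change of -0.60 (SE 0.118, adjusted p = 0.00268 by edgeR). Against KO/FL, with 341 ± 42.2 CPM (SD, n = 3), it was -0.54 (SE 0.118, adjusted p = 0.0128 by edgeR). Both comparisons share the Lepr-Cre libraries. The second was no longer past the threshold without KO/FL B or C or without Lepr-Cre A or C, with adjusted p of 0.0523 to 0.103, and not by limma.

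In CFU-E Ifngr1 stood at 213, 192 and 265 CPM in FL/FL, at 201, 191 and 209 CPM in KO/FL and at 155, 138 and 143 CPM in Lepr-Cre mice. The Lepr-Cre libraries were again below all others. The log2 fold change was -0.61 against FL/FL (SE 0.122, adjusted p = 0.00482 by edgeR), between means of 145 ± 8.80 and 223 ± 37.7 CPM (SD, n = 3 each). Against KO/FL it was -0.45 with an adjusted p of 0.0719 by edgeR, which did not pass, and 0.0145 when the letters of the mice were kept as a block. The differences from FL/FL kept their call in both cell types under every alternative that was run.

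Ifngr2 lies at chr16:91547072-91565623 on the plus strand. In CFU-E it stood at 12.2, 12.3 and 9.06 CPM in FL/FL, at 10.3, 9.95 and 10.5 CPM in KO/FL and at 3.43, 1.35 and 3.51 CPM in Lepr-Cre mice. The Lepr-Cre libraries did not overlap with the others. The log2 fold change was -1.99 against FL/FL (SE 0.417, adjusted p = 0.00655 by edgeR) and -1.86 against KO/FL (SE 0.416, adjusted p = 0.0268 by edgeR). The first held under every alternative that was run. The second was lost without any 1 of the 3 KO/FL libraries or without Lepr-Cre B, with log2 fold changes of -1.56 to -1.89 and adjusted p of 0.0657 to 0.126, and by limma on log2(RPKM + 0.1), with an adjusted p of 0.0575.

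In PreCFU-E the level of Ifngr2 varied more between mice, from 5.27 CPM in Lepr-Cre B and 6.91 CPM in KO/FL A to 17.8 CPM in KO/FL B. The groups overlapped, and the log2 fold change of Lepr-Cre against FL/FL was -0.38 (adjusted p = 0.638 by edgeR). Whether the genotype difference itself differed between the cell types was tested as an interaction: it was -1.62 (SE 0.566), with an unadjusted p of 0.00774 and an adjusted p of 0.330 by edgeR, and so was not called. Ifnar1 and Ifnar2, the chains of the type I receptor, had log2 fold changes of -0.06 and -0.12 in PreCFU-E of Lepr-Cre against FL/FL mice, with adjusted p of 0.920 and 0.865 by edgeR. In CFU-E Ifnar1 stood at 34.0, 26.2 and 32.3 CPM in FL/FL, at 29.8, 36.5 and 28.3 CPM in KO/FL and at 22.3, 23.3 and 21.8 CPM in Lepr-Cre mice, so that the Lepr-Cre libraries lay below all others. Its log2 fold changes were -0.44 against FL/FL and -0.48 against KO/FL, with unadjusted p of 0.0451 and 0.0291 and adjusted p of 0.244 and 0.339 by edgeR, and were not called. Whether Ifngr1 or Ifngr2 differed from Ifnar1 in its response was not tested.

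Counted over the list, 2 of 41 members were lower and 0 higher in PreCFU-E of Lepr-Cre against FL/FL mice, where 3.24% of all tested genes were lower and 2.89% higher. The second member was Ifi27, which encodes a mitochondrial protein. It stood at 16.3, 29.7 and 27.2 CPM in FL/FL, at 20.7, 26.2 and 29.6 CPM in KO/FL and at 12.6, 13.7 and 13.5 CPM in Lepr-Cre mice. The Lepr-Cre libraries lay below the rest, and the log2 fold change against FL/FL was -0.87 (SE 0.258, adjusted p = 0.0455 by edgeR). That call was lost without FL/FL B or C or any Lepr-Cre library, with adjusted p of 0.106 to 0.190, in the fit of all 18 libraries and by limma.

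The other counts were as low. In PreCFU-E of Lepr-Cre against KO/FL mice 1 member was lower and 0 higher, where 1.16% of all genes were lower and 1.02% higher. In CFU-E 2 of 40 members were lower and 1 higher against FL/FL, where 2.75% of all genes were lower and 2.08% higher. Against KO/FL in CFU-E 1 member was lower and 0 higher, where 0.716% of all genes were lower and 0.294% higher. The medians of the members were -0.20 and -0.18 in PreCFU-E against FL/FL and KO/FL and -0.04 and -0.21 in CFU-E, beside 0.00, 0.00, 0.00 and 0.01 over all tested genes. The share of members called is close to that of all genes in each of these comparisons.

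The 1 member that was higher in CFU-E of Lepr-Cre mice was Ifitm3, a membrane protein that hinders viral entry. It stood at 7.74, 9.86 and 11.9 CPM in FL/FL, at 11.7, 14.1 and 14.2 CPM in KO/FL and at 17.3, 44.6 and 18.1 CPM in Lepr-Cre mice. All 3 Lepr-Cre libraries were above the others, with mouse B far above A and C. The log2 fold change was 1.44 against FL/FL (SE 0.336, adjusted p = 0.0133 by edgeR). It was 0.84 with an adjusted p of 0.143 without Lepr-Cre B, the call was also lost without FL/FL A or B, at 1.30 and 1.43 with adjusted p of 0.0848 and 0.0677, and it was not made by limma. Against KO/FL it was 1.01 with an adjusted p of 0.172 by edgeR. Reads of Ifitm1, Ifitm2 and Ifitm3, which are close copies, could have been split between them in counting.

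No member changed between KO/FL and FL/FL mice in either cell type, where 0% of all genes were called by edgeR, and DESeq2 called no member either. At an unadjusted p under 0.05, 1 of 41 members passed in PreCFU-E, where 3.4% of all genes did, and 0 of 40 in CFU-E, where 2.06% did. The members' medians were 0.02 and 0.05. Whether genotype differences differed between the cell types gave 0 of 41 members in each of 3 interaction tests. For Lepr-Cre against FL/FL, 0.354% of all genes were called, and 2 members had an unadjusted p under 0.05, where 8.17% of all genes did. For Lepr-Cre against KO/FL, 0% of all genes were called, and 2 members had such a p beside 5.3% of genes. For KO/FL against FL/FL, 0% were called, and 1 member had such a p beside 2.32% of genes. DESeq2 called 0 members in each of the 3 tests.

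With the letters of the mice kept as a block, the calls between genotypes rose in number. In PreCFU-E of Lepr-Cre against FL/FL mice 5 members passed, where 15.4% of all genes did: Gbp7, a guanylate-binding protein, was higher by 0.57, and Ifi27, Ifngr1, Irf7 and Psmb8 were lower, by edgeR. Irf7, a factor that amplifies type I interferon responses, had a log2 fold change of -1.17 (adjusted p = 0.0042 by edgeR with the block), and -0.99 without the block, where its adjusted p was 0.324. Against KO/FL 4 members were lower in PreCFU-E, where 8.15% of all genes were called, and these were Ifi27, Ifngr1, Irf7 and Psmb8. In CFU-E against KO/FL the 3 members Ifi27, Ifngr1 and Ifngr2 were lower, where 2.75% of all genes were called. Because the letter B marks the female mice, a block on letters also takes up a difference between the sexes.

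**Figure D2:**
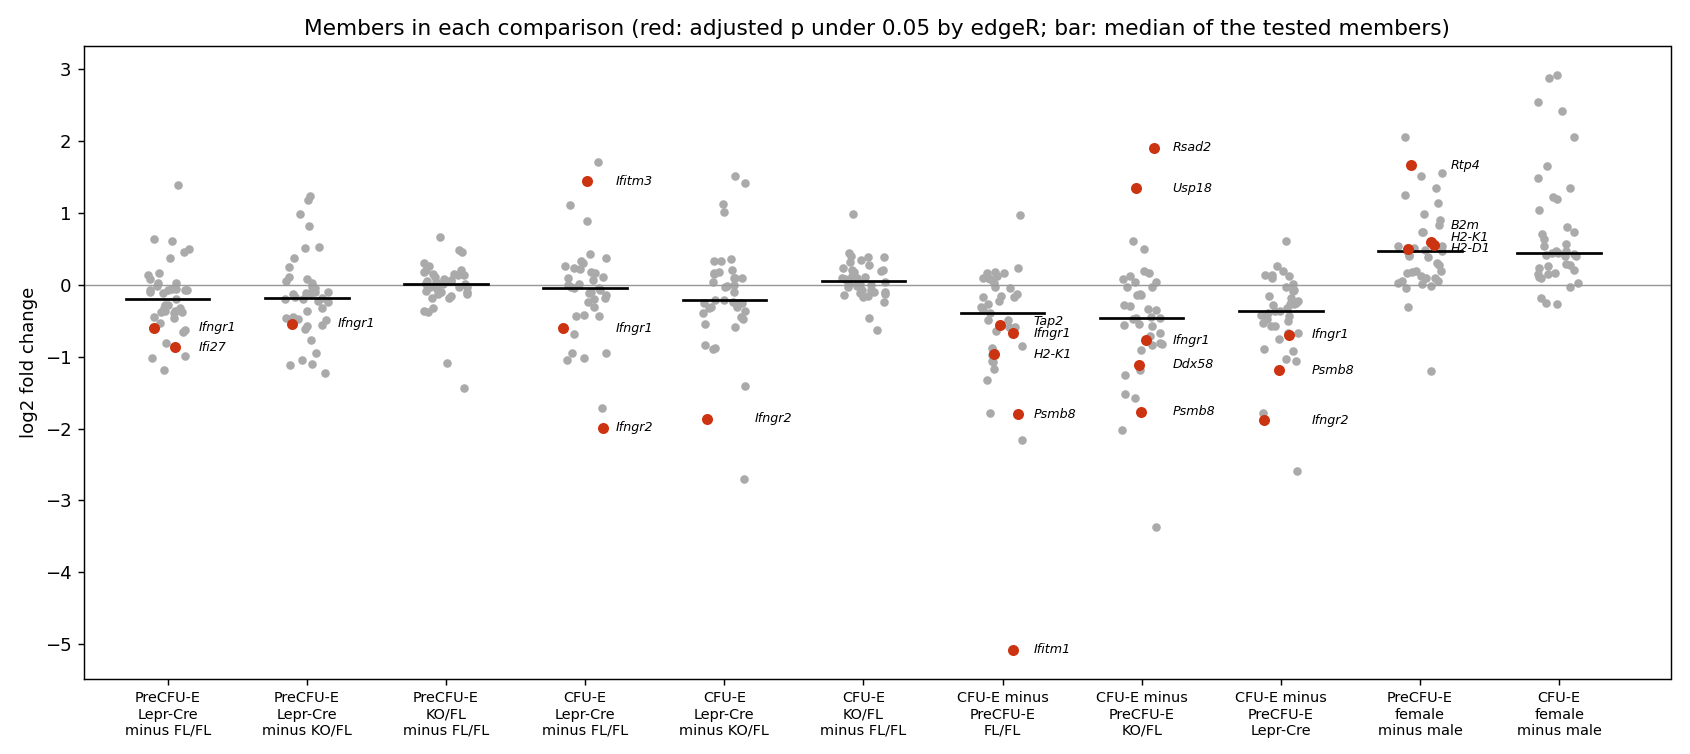
Log2 fold change of each tested member on the y axis in 11 comparisons of genotype, cell type and sex along the x axis, with 1 point for each member, red for an adjusted p under 0.05 by edgeR and a bar at the median. Between 8 and 12 of 41 members lie above 0 in CFU-E against PreCFU-E and in PreCFU-E of Lepr-Cre mice against either other genotype, while 37 of 41 and 36 of 40 do in female against male mice.

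The second question was how the members changed from PreCFU-E to CFU-E. The receptor chain Ifngr1 and the immunoproteasome subunit Psmb8, which helps to cut proteins into peptides for MHC class I, were lower in CFU-E in all 3 genotypes. Without a block for the mouse, the heavy chain H2-K1 and the peptide transporter chain Tap2 were called lower in FL/FL mice. With the mouse kept as a block, H2-K1, B2m, H2-D1 and Tap1 were lower in all 3 genotypes. Rsad2 and Usp18 were higher in CFU-E of KO/FL mice.

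Psmb8 lies at chr17:34197721-34201454 on the plus strand, and its exons overlap those of the predicted gene Gm20496. In FL/FL mice A, B and C it stood at 123, 118 and 151 CPM in PreCFU-E and at 36.2, 24.1 and 52.3 CPM in CFU-E. The KO/FL mice had 125, 141 and 138 CPM in PreCFU-E and 37.5, 48.5 and 32.7 CPM in CFU-E. The Lepr-Cre mice had 75.9, 116 and 94.2 CPM in PreCFU-E and 35.2, 59.8 and 30.8 CPM in CFU-E. The cell types did not overlap in any genotype. The Lepr-Cre libraries of PreCFU-E were below all 6 other libraries of that cell type, with Lepr-Cre B at 116 CPM just under FL/FL B at 118 CPM. Without a block, that difference from FL/FL was -0.45 in log2 (SE 0.143, adjusted p = 0.0666 by edgeR) and was not called. The log2 fold changes of CFU-E against PreCFU-E by edgeR were -1.80 (SE 0.267, adjusted p = 8.91e-05) for FL/FL, -1.76 (SE 0.266, adjusted p = 0.000137) for KO/FL and -1.19 (SE 0.263, adjusted p = 0.00874) for Lepr-Cre mice. The last was -1.03 with an adjusted p of 0.0514 without Lepr-Cre C of CFU-E.

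Ifngr1, with the values given above, fell from 356 to 223 CPM in FL/FL, from 341 to 200 CPM in KO/FL and from 235 to 145 CPM in Lepr-Cre mice as group means. The log2 fold changes were -0.68, -0.77 and -0.69, with adjusted p of 8.3e-05, 1.81e-05 and 0.000242 by edgeR. The steps were of like size in the 3 genotypes, and none of the alternatives removed a call. Ifngr2 was lower in CFU-E of Lepr-Cre mice, with a log2 fold change of -1.88 (SE 0.421, adjusted p = 0.00417 by edgeR), and the adjusted p was 0.0505 when only the 6 libraries of that genotype were fitted.

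The heavy chain H2-K1 lies at chr17:33996017-34000347 on the minus strand. In FL/FL mice it stood at 535, 567 and 496 CPM in PreCFU-E and at 258, 250 and 310 CPM in CFU-E. The libraries of the cell types did not overlap, and the log2 fold change was -0.97 (SE 0.312, adjusted p = 0.0494 by edgeR), which was lost without any 1 of the 6 libraries and, at 0.0779, without the filter on low counts. Tap2 stood at 91.7, 97.9 and 94.6 CPM in PreCFU-E and at 61.9, 58.1 and 73.0 CPM in CFU-E of FL/FL mice, a log2 fold change of -0.56 (SE 0.174, adjusted p = 0.0231 by edgeR). Tap2 lost its call without FL/FL B or C of PreCFU-E or FL/FL A or B of CFU-E, with adjusted p of 0.0501 to 0.119. Reads of H2-K1, H2-D1 and other class I genes can be shared in counting.

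Ifitm1 had 14, 15 and 20 counts in PreCFU-E and 1, 0 and 0 counts in CFU-E of FL/FL mice. Its ratio of PreCFU-E to CFU-E was 47.9, with a 95% counting interval of 8.21 to 1931 that covers counting error only. It passed the test with an adjusted p of 0.0437 by edgeR, and lost it without any 1 of the 6 libraries and, at 0.0618, without the filter on low counts. In PreCFU-E of the other genotypes it had 0 to 16 counts, with 0 in KO/FL A and Lepr-Cre B.

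Of the 3 further members called, all in KO/FL mice, Rsad2 encodes viperin, an antiviral enzyme, Usp18 removes ISG15 from proteins and Ddx58 encodes RIG-I, a sensor of viral RNA. Rsad2 stood at 1.38, 3.17 and 2.38 CPM in PreCFU-E and at 5.19, 16.8 and 4.73 CPM in CFU-E, a log2 fold change of 1.90 (SE 0.575, adjusted p = 0.0230 by edgeR). Usp18 stood at 4.42, 6.34 and 2.97 CPM in PreCFU-E and at 15.9, 11.1 and 7.89 CPM in CFU-E, a log2 fold change of 1.34 (SE 0.417, adjusted p = 0.0277 by edgeR). Ddx58 stood at 14.1, 28.4 and 17.5 CPM in PreCFU-E and at 6.21, 12 and 9.76 CPM in CFU-E, a log2 fold change of -1.11 (SE 0.361, adjusted p = 0.0350 by edgeR). The groups of each gene did not overlap. Without CFU-E KO/FL B, Rsad2 changed by 1.06 with an adjusted p of 0.301, and its call was also lost without PreCFU-E KO/FL A or C, at 0.0919 and 0.0621. The call of Usp18 was lost without PreCFU-E KO/FL A or C or CFU-E KO/FL A or B, with adjusted p of 0.0507 to 0.160. Neither Rsad2 nor Usp18 passed by limma on log2(RPKM + 1) or log2(RPKM + 0.1), with adjusted p of 0.0797 to 0.127. That of Ddx58 was lost without PreCFU-E KO/FL B, at -0.77, or CFU-E KO/FL A or C, with adjusted p of 0.0768 to 0.271.

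In FL/FL mice 5 of 41 members were lower in CFU-E and 0 higher, where 9.3% of all genes were lower and 8.99% higher. In KO/FL mice 3 were lower and 2 higher, where 7.18% and 6.89% of all genes were. In Lepr-Cre mice 3 were lower and 0 higher, where 4.25% and 3% of all genes were. In this fit without a block for the mouse, the 5, 3 and 3 lower members are 12.2%, 7.32% and 7.32% of the list, near the share of all genes. More members passed with the block, as given below. The members' medians were -0.39, -0.46 and -0.36, against 0.01, 0.00 and -0.01 over all genes, and 10, 10 and 8 of 41 members were above 0. By role, the medians of the 8 genes of peptide supply and MHC class I were -0.62, -0.62 and -0.48 in the 3 genotypes, and those of the 4 transcription factors were -0.04, -0.05 and 0.11.

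Since each mouse gave both cell types, the mouse can be kept as a block. Then 17 members passed in FL/FL mice, where 25.2% of all genes did, with 16 lower in CFU-E and Usp18 higher. In KO/FL mice 14 passed, where 20.1% of all genes did, with 12 lower and Rsad2 and Usp18 higher. In Lepr-Cre mice 10 passed, all lower, where 12.3% of all genes did. The 10 were B2m, H2-K1, H2-D1, Tap1, Psmb8, Dtx3l, Parp14, Irf1, Ifngr1 and Ifngr2. Of the 8 genes of peptide supply and MHC class I, all 8 passed with the block in FL/FL mice, 6 in KO/FL mice and 5 in Lepr-Cre mice. Tap2 and Psmb10 did not pass in KO/FL mice, with adjusted p of 0.0622 and 0.244 by edgeR, and Tap2, Psmb9 and Psmb10 did not in Lepr-Cre mice, with 0.0669, 0.0782 and 0.360.

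The largest part of the members' variation lay between mice of the same genotype. The CPM values, with 0.5 added, were put on the log2 scale and each gene's group mean was subtracted, so that only differences among the 3 libraries of a group were left. Over 820 pairs of the 41 members, the median correlation of these deviations across 18 libraries was 0.445, and 82.7% of the pairs were above 0, while the median over all pairs of tested genes was 0.001. These correlations are descriptions: the 18 points share group means, and pairs of them share a mouse. The median was 0.489 within PreCFU-E and 0.478 within CFU-E.

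**Figure D3:**
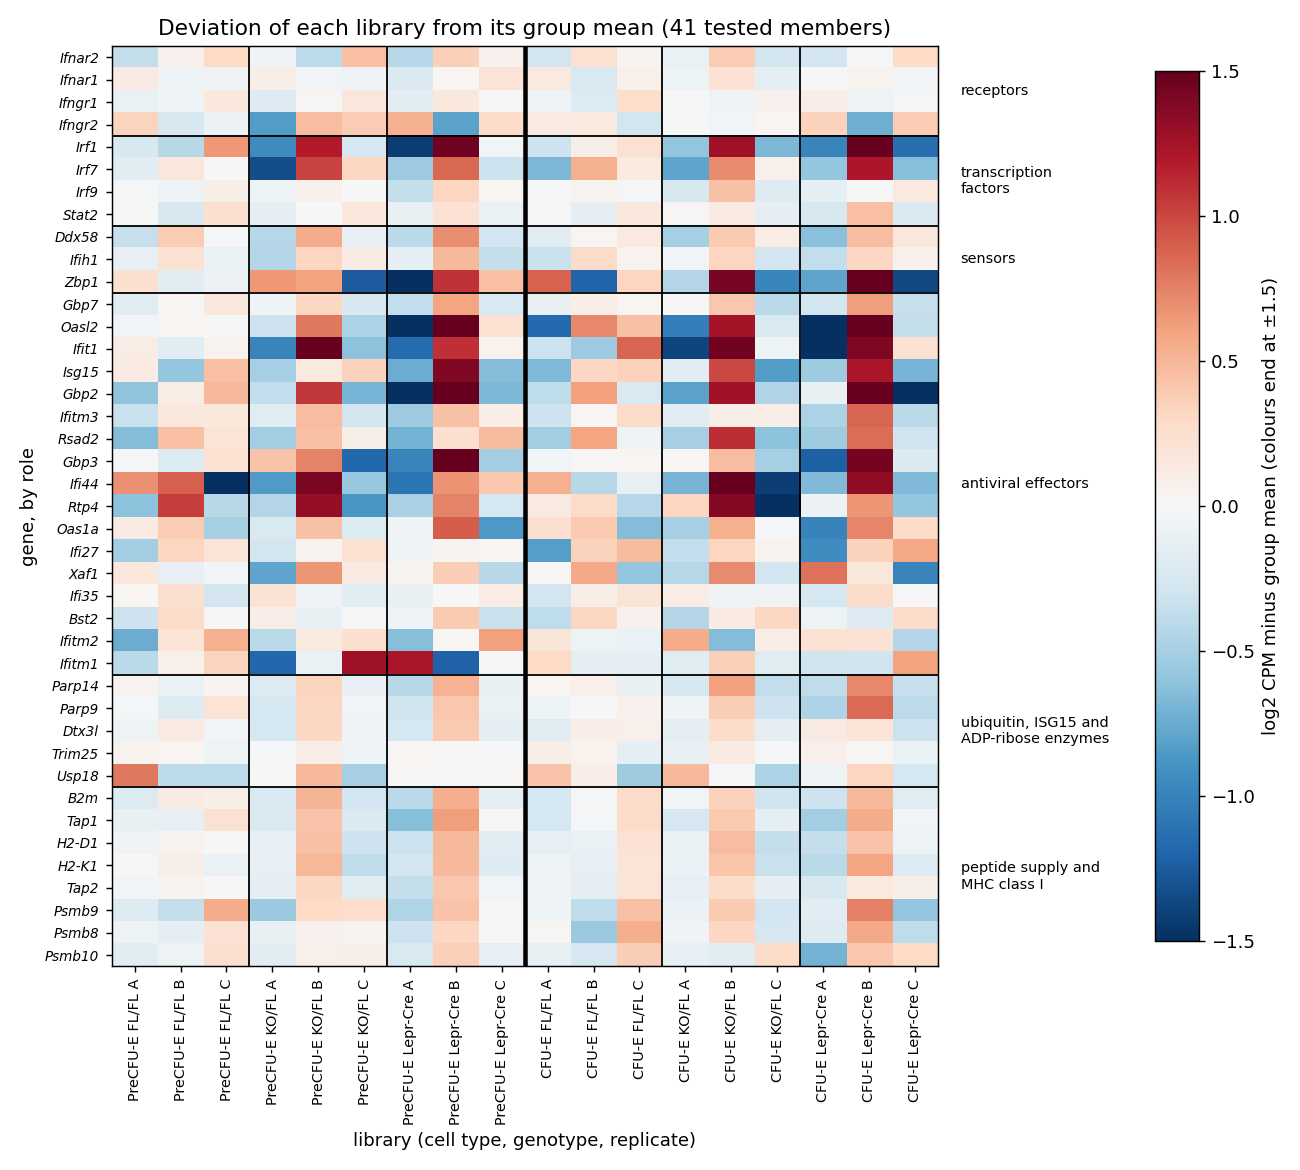
Deviation of each member from its group mean, in log2 units shown by colour that ends at 1.5 either way, for 41 members in rows grouped by role and 18 libraries in columns. The columns of mouse B in the KO/FL and Lepr-Cre groups are high and those of Lepr-Cre A are low for most members in both cell types.

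The members did not share it equally. By role, the median correlation was 0.694 among the 8 genes of peptide supply and MHC class I, 0.623 among the 4 transcription factors, 0.446 among the 3 sensors, 0.411 among 17 antiviral effectors, 0.396 among the 5 enzymes and 0.024 among the 4 receptor chains. Irf1, B2m, Parp14, Tap1, H2-D1, Gbp7, Parp9 and H2-K1 had the highest mean correlation with the other members, from 0.57 to 0.60. Parp9 and Parp14 encode ADP-ribosyltransferases, and Tap1 encodes the partner of Tap2 in the peptide transporter. Ifngr2 and Ifitm1 had the lowest, at -0.32 and -0.19, and Ifitm2 had 0.02. Tap1 shares exon bases with Psmb9 and Parp9 with Dtx3l, so their counts are not independent where the counting did not use strand, which the sources used here do not give.

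Irf1, at chr11:53770014-53778374 on the plus strand, had the highest mean correlation. In PreCFU-E it stood at 9.21, 8.14 and 17.5 CPM in FL/FL mice A, B and C, at 4.70, 22.3 and 7.88 CPM in KO/FL and at 2.60, 22.4 and 7.58 CPM in Lepr-Cre mice. In CFU-E the same mice had 3.96, 5.40 and 6 CPM, 3.39, 13.6 and 3.16 CPM, and 1.18, 14 and 1.02 CPM. Mouse B of KO/FL and of Lepr-Cre was highest of its group in both cell types, while in FL/FL it was not.

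B2m, at chr2:122147686-122153083 on the plus strand, had 511, 640 and 628 CPM in PreCFU-E of FL/FL mice, 493, 823 and 472 CPM of KO/FL mice and 424, 815 and 508 CPM of Lepr-Cre mice. In CFU-E it had 325, 384 and 475 CPM, 385, 505 and 323 CPM, and 354, 619 and 387 CPM. The 4 libraries of KO/FL B and Lepr-Cre B were the highest of their groups. H2-K1, beside the FL/FL values above, had 463, 713 and 385 CPM in PreCFU-E of KO/FL and 427, 735 and 457 CPM of Lepr-Cre mice. In CFU-E it had 268, 380 and 224 CPM, and 261, 523 and 303 CPM, with mouse B again highest each time.

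Gbp3, at chr3:142560026-142573209 on the plus strand, encodes a guanylate-binding protein. It stood at 20.1, 17.6 and 24 CPM in PreCFU-E of FL/FL, 27.7, 34.7 and 8.77 CPM of KO/FL and 19.5, 113 and 27.2 CPM of Lepr-Cre mice. In CFU-E it stood at 10.1, 10.6 and 10.6 CPM, 12.4, 16.8 and 8.46 CPM, and 10.5, 68.8 and 21.6 CPM. FL/FL mice were close to each other, and Lepr-Cre B was far above every other library of its cell type. Gbp7 followed it, with 229 and 211 CPM in the PreCFU-E and CFU-E of Lepr-Cre B, against 91.3 to 150 CPM and 95.4 to 167 CPM in the other libraries.

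The antiviral genes ran at lower counts. Oasl2, a member of the oligoadenylate synthetase family, stood at 10.7, 11.2 and 11 CPM in PreCFU-E of FL/FL mice A, B and C, at 6.91, 15.4 and 6.10 CPM in KO/FL and at 0.411, 13.9 and 4.11 CPM in Lepr-Cre mice. In CFU-E it stood at 0.899, 4.69 and 3.77 CPM, 1.35, 8.48 and 2.73 CPM, and 0, 9.17 and 1.02 CPM. Mouse B was highest in all 6 groups, by little in PreCFU-E of FL/FL mice.

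Ifit1, which binds viral RNA, stood at 3.31, 2.66 and 3.18 CPM in PreCFU-E of FL/FL, 1.38, 10.9 and 1.93 CPM of KO/FL and 0.548, 4.48 and 1.93 CPM of Lepr-Cre mice. In CFU-E it stood at 0.899, 0.704 and 2.71 CPM, 0.113, 3.84 and 1 CPM, and 0, 3.61 and 1.32 CPM. Mouse B was highest in the 4 groups of KO/FL and Lepr-Cre mice and lowest in both groups of FL/FL mice.

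Isg15, a ubiquitin-like protein, stood at 3.21, 1.78 and 4.14 CPM in PreCFU-E of FL/FL, 1.94, 3.31 and 3.87 CPM of KO/FL and 0.685, 4.71 and 0.771 CPM of Lepr-Cre mice. In CFU-E it stood at 1.80, 3.99 and 4.12 CPM, 3.27, 7.91 and 1.86 CPM, and 0.709, 3.61 and 0.585 CPM. Mouse B was highest in 3 of the 6 groups, while mouse C was highest in PreCFU-E of KO/FL mice and in both groups of FL/FL mice.

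Counted over all 41 members, mouse B was the highest of its group for 29 and 33 members in PreCFU-E and CFU-E of KO/FL mice and for 33 and 31 members in Lepr-Cre mice. In FL/FL mice it was highest for 17 and 15. Over all tested genes, 27.8% to 37.5% had their highest value in any given mouse of a group. Mouse A of Lepr-Cre was lowest for 33 members in PreCFU-E and 23 in CFU-E. Averaged over the members, the deviation from the group mean was 0.42 and 0.51 in PreCFU-E and CFU-E of KO/FL B and 0.52 and 0.65 in Lepr-Cre B. It was -0.45 and -0.40 in Lepr-Cre A, -0.30 and -0.23 in KO/FL A, and between -0.12 and 0.08 in the 6 FL/FL libraries. The Lepr-Cre C mouse stood at -0.07 and -0.25 and the KO/FL C mouse at -0.12 and -0.28.

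**Figure D4:**
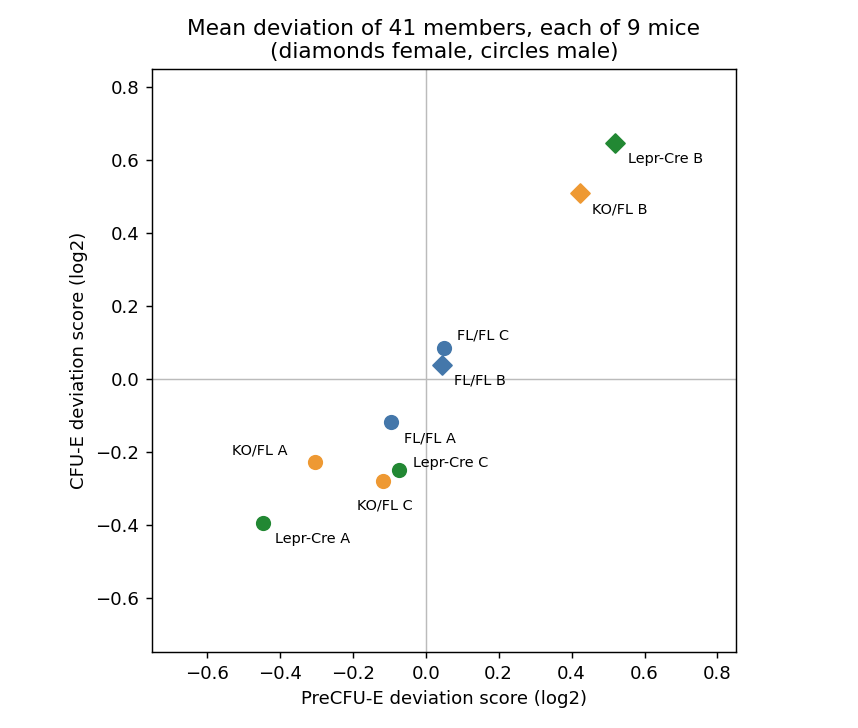
Mean log2 deviation of the 41 members from their group mean in PreCFU-E on the x axis and CFU-E on the y axis, 1 point for each of the 9 mice, by genotype and sex. All 9 mice lie on the same side of 0 in both cell types, with KO/FL B and Lepr-Cre B at the top right and Lepr-Cre A at the lower left.

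The sign of this mean deviation was the same in the PreCFU-E and CFU-E libraries of 9 of 9 mice. For single members, the correlation between the cell types over the 9 mice had a median of 0.691 and was above 0 for 37 of 41 members, while over all tested genes the median was 0.212 and 66.6% were above 0. These 9 points share 3 group means. Bst2, Ifitm1 and Ifitm2 were among the members with a value below 0. When each gene's variation was split, mice within a genotype accounted for a median of 46.0% for the members and 28.2% for all tested genes, cell type for 18.9% and 15.6%, and genotype for 11% and 11.3%. The difference between female and male mice made up a median of 20.6% of the members' variation and 2.69% of that of all genes, as part of the variation between mice. The 3 females did not share it equally. FL/FL B had mean deviations of 0.04 and 0.04 in PreCFU-E and CFU-E, below the male FL/FL C at 0.05 and 0.08. KO/FL B had 0.42 and 0.51, and Lepr-Cre B had 0.52 and 0.65. Sex and the letter B cannot be told apart here.

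Without the 6 libraries of the female mice the median correlation of the members fell to 0.181 over 12 libraries, where that of all genes was 0.002. Only mice A and C were then left, so that value rests on 1 pair of mice in each of the 3 genotypes. Leaving out 1 library or 1 mouse at a time, the members' median correlation ranged from 0.318 to 0.506, lowest without the Lepr-Cre B mouse. The correlation among the male libraries alone was thus smaller than with the B mice, and above that of all genes. With cell types and genotypes pooled, depth and the markers of other cells overlapped between the sexes. The totals of the female libraries were 6733640 to 9325063 counts against 3541066 to 9389122 in the males. Their summed levels were 1.93 to 5.86 CPM against 0.553 to 6.24 CPM for macrophage markers. For neutrophil and monocyte markers they were 0.592 to 1.80 against 0.287 to 3.87 CPM, and for dendritic cell markers 1.57 to 11 against 3.04 to 15.8 CPM. For B cell markers they were 0.336 to 9.47 against 0.207 to 14.9 CPM. For T and natural killer cell markers they were 0.226 to 4 against 0.180 to 7.32 CPM. For megakaryocyte markers they were 30.3 to 53.1 against 26.5 to 52.5 CPM, and for stem cell markers 145 to 263 against 141 to 259 CPM. Genes with a count numbered 10782 to 12024 in the female libraries and 11382 to 13536 in the male ones, which overlap. In Lepr-Cre mice, mouse B had the fewest in both cell types. It had 11709 beside 12296 and 12469 in PreCFU-E, and 10782 beside 12076 and 11772 in CFU-E. In KO/FL mice it lay between A and C in both, at 11668 in PreCFU-E and 12021 in CFU-E. Within groups, mouse B was the deepest library in PreCFU-E of KO/FL and Lepr-Cre mice and the shallowest in CFU-E of Lepr-Cre mice. In Lepr-Cre mice, its macrophage markers were highest in CFU-E, at 5.86 CPM beside 3.90 and 2.78 CPM. In PreCFU-E they were lowest, at 2.02 CPM beside 4.25 and 4.11 CPM. Stem cell markers of Lepr-Cre B were highest in CFU-E, at 196 CPM beside 141 and 186 CPM, and lowest in PreCFU-E, at 145 CPM. Its megakaryocyte markers were highest in both, at 53.1 CPM beside 31.6 and 43.6 CPM in CFU-E. In CFU-E of KO/FL mice, mouse B was highest for stem cell markers, at 263 CPM beside 183 and 219 CPM. It was also highest there for megakaryocyte markers, at 38.3 CPM, and for neither in PreCFU-E. The part of depth, other cells and genes detected in the result was not tested.

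Female and male mice were also compared, with genotype as a covariate. The females are the B mice, so this comparison uses the same libraries as the values above and is not independent of them. In PreCFU-E 4 of 41 members were higher in the 3 female mice and 0 lower, where 0.0873% of all tested genes were higher. They were the MHC class I heavy chains H2-K1 and H2-D1, the light chain B2m, and Rtp4, a receptor transporter protein induced by interferon. The 3 females had 567, 713 and 735 CPM of H2-K1 while the males had 385 to 535 CPM, a log2 fold change of 0.55 (SE 0.102, adjusted p = 0.0265 by edgeR). For B2m the females had 640, 823 and 815 CPM and the males 424 to 628 CPM, a log2 fold change of 0.59 (SE 0.110, adjusted p = 0.0361 by edgeR). Neither gene's sexes overlapped, though the FL/FL female lay near the highest male in both.

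H2-D1, at chr17:35262730-35267499 on the plus strand, had 446, 577 and 637 CPM in the females and 342 to 428 CPM in the males, a log2 fold change of 0.50 (SE 0.101, adjusted p = 0.0396 by edgeR). Rtp4, at chr16:23520291-23614222 on the plus strand, had 14.1, 20.8 and 7.74 CPM in the females and 3.02 to 5.81 CPM in the males, a log2 fold change of 1.66 (SE 0.327, adjusted p = 0.0314 by edgeR). All 4 calls were lost without KO/FL B or Lepr-Cre B, where the log2 fold changes were 0.50 and 0.48 for B2m, 0.44 and 0.46 for H2-K1, 0.41 and 0.38 for H2-D1 and 1.44 and 1.87 for Rtp4, with adjusted p of 0.139 to 0.463. They were also lost without Lepr-Cre A and by limma. H2-K1, H2-D1 and B2m further lost the call without Lepr-Cre C, B2m without any other KO/FL library or FL/FL A, and Rtp4 without FL/FL A or B. When both libraries of each mouse were summed, so that 9 mice were compared, 0 of 41 members passed by edgeR, where 0.0454% of all genes were higher, 21 members had an unadjusted p under 0.05 where 5.99% of all genes did, and the adjusted p of the 4 were 0.541, 0.732, 0.605 and 0.086.

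In CFU-E 0 of 40 members passed by edgeR, where 0.0196% of all genes were higher. DESeq2 called 6, for which the share of all genes is not given here. At an unadjusted p under 0.05 there were 19 members, where 4.75% of all genes had one. Irf7 had the lowest adjusted p, at 0.157 by edgeR with a log2 fold change of 1.22 (SE 0.270), from 28.2, 28.8 and 20.9 CPM in the females and 5.41 to 21.3 CPM in the males. B2m, H2-K1 and H2-D1 had log2 fold changes of 0.41, 0.47 and 0.40 in CFU-E, each with an adjusted p of 0.978 by edgeR. The difference between the sexes in PreCFU-E was not tested against that in CFU-E.

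The members' medians were 0.47 in PreCFU-E and 0.44 in CFU-E, beside -0.01 over all genes in each, and 37 of 41 and 36 of 40 members were above 0. All 3 females were above all 6 males for 10 of 41 members in PreCFU-E, where this held for 2% of all tested genes, and for 7 of 40 in CFU-E, where it held for 1.18%. The 10 were B2m, H2-K1, H2-D1, Tap2, Ddx58, Ifih1, Dtx3l, Oas1a, Oasl2 and Rtp4, and the 7 were Ifih1, Dtx3l, Oas1a, Oasl2, Gbp2, Parp14 and Rsad2. No member had the females below all males in either cell type. Ifih1 encodes MDA5, a sensor of long double-stranded RNA.

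Other genes of interferon signalling and antigen presentation were followed from a fixed list that excludes the members, with 89 tested in PreCFU-E, 87 in CFU-E and 91 in the fit of both. In PreCFU-E of Lepr-Cre mice 3 were higher and 2 lower against FL/FL, and 2 higher and 0 lower against KO/FL. In CFU-E 2 were higher and 1 lower against FL/FL, and 0 were called against KO/FL. In these comparisons the higher genes were 0% to 3.37% and the lower 0% to 2.25% of those tested, beside 0.294% to 2.89% and 0.716% to 3.24% of all genes. Between KO/FL and FL/FL and between the sexes 0 were called. In CFU-E against PreCFU-E of FL/FL mice 2 were higher and 10 lower. The same comparison gave 1 higher and 6 lower for KO/FL mice, then 1 higher and 5 lower for Lepr-Cre mice. The lower genes are 11%, 6.59% and 5.49% of the 91, near the 9.3%, 7.18% and 4.25% of all genes given above, and the higher ones are 2.20%, 1.10% and 1.10%, beside 8.99%, 6.89% and 3%. The exonuclease gene Isg20 was higher in CFU-E in all 3 genotypes, with log2 fold changes of 1.51, 1.38 and 1.05, and Trim14 was lower, with -2.24, -1.44 and -2.22.

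Gbp5, a guanylate-binding protein, and Socs1, an inhibitor of JAK kinases that interferon gamma induces, were higher in PreCFU-E of Lepr-Cre mice against both other genotypes. They are among the 3 genes of that list called higher there against FL/FL. The 2 genes called lower there, and the 1 called lower in CFU-E against FL/FL, are not described here. The genes described thus show 1 direction only. Gbp5 stood at 3.41, 3.99 and 3.87 CPM in FL/FL, 8.30, 4.68 and 3.27 CPM in KO/FL and 14.1, 28.1 and 15.2 CPM in Lepr-Cre mice, so that all 3 Lepr-Cre mice were above the rest. Its log2 fold change was 2.36 against FL/FL (adjusted p = 0.00066 by edgeR) and 1.87 against KO/FL (adjusted p = 0.0114 by edgeR), the latter lost without KO/FL B or C or Lepr-Cre B, at 1.47 with an adjusted p of 0.164 in the last case, and in the fit of 18 libraries and by limma. Socs1 had 0 counts in FL/FL and KO/FL and 78 counts in Lepr-Cre, at 1.78, 4.93 and 2.70 CPM, which is at least 24.7-fold and 18.4-fold higher, with the group at 0 set to a floor of 3 counts in all. It was called by edgeR with adjusted p of 0.0109 against FL/FL, lost without Lepr-Cre B at 0.0857, and 0.0339 against KO/FL, lost without any 1 of the 6 libraries or by limma on log2(RPKM + 1). In CFU-E Gbp5 was higher against FL/FL by 3.34 (adjusted p = 0.0135 by edgeR), at 6.50, 19.8 and 4.38 CPM in Lepr-Cre and 0.899, 1.88 and 0.235 CPM in FL/FL mice, and lost its call without Lepr-Cre B, at 2.42, without FL/FL A, at 3.27, or by limma.

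To find genes outside the list that followed the same mice, 8830 genes with a mean of at least 5 CPM were ranked by the correlation of their deviations with the members' mean deviation over 18 libraries. Among the highest were Mov10 at 0.926, H2-Q7 at 0.911, Gpaa1 at 0.908, Parp12, H2-Q4, H2-Q6, Nlrc5, Pold1 and Adar, the last at 0.881. H2-Q4, H2-Q6 and H2-Q7 are further MHC class I genes whose reads can be shared with H2-K1 and H2-D1, Nlrc5 encodes an activator of MHC class I genes, and Adar encodes an enzyme that edits double-stranded RNA.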

How the data were processed

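Total RNA of sorted PreCFU-E and CFU-E was sequenced in 18 libraries from 9 mice. The authors deposited whole-number counts per gene and RPKM values per gene. Alignment with STAR 2.5.2b to mm10 and counting with HTSeq are per the submitters' processing notes; the sources used here name neither the annotation nor the strand setting. The deposited RPKM were compared only within a gene, because their length divisor was within 10% of the gene's annotated span for 8.07% of genes.

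Counts were tested with edgeR 4.0.16 in R 4.3.3 (filterByExpr with a minimum count of 10, TMM, quasi-likelihood, Benjamini-Hochberg over all tested genes). Genotypes were fitted on the 9 libraries of a cell type, cell types and interactions on all 18, and sex on 9 with genotype as covariate. CPM are counts per 1000000 of the library's effective size, which is its total over the genes kept by the filter times its TMM factor. Alternatives were DESeq2 1.42.0, its size factors, no filter, limma 3.58.1 on log2(RPKM + 1) and log2(RPKM + 0.1), a block and leaving out libraries. The fits were tested on simulated data.

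Libraries of the same mouse deviated together, with correlations over genes of 0.111 to 0.197. Same-letter libraries of different genotypes gave 0.109 to 0.178 in PreCFU-E and 0.0877 to 0.189 in CFU-E; what a letter stands for is not stated. In CFU-E of Lepr-Cre against FL/FL, letter C was the one under 0.1, so the letters were not taken to pair those groups.

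The members, the gene lists and the comparison of the sexes were chosen with earlier results of these data known. Named genes were all members past the threshold, the 8 with the highest mean correlation, and the leading genes of the other lists. Members given only as examples, such as Gbp3, Oasl2, Ifit1 and Isg15, were chosen after their values were seen. Replicates within a group were separate mice, so p-values of the genotype and sex fits measure spread between mice. The cell type and interaction fits without a block treated the 2 libraries of a mouse as independent, although they deviated together. With the mouse as a block, p-values measure how the step between cell types varied from mouse to mouse. The number of reads limits the precision of low genes. Positions are from the GENCODE annotation of mm10. A result that needs an item withheld for evaluation is not reported here.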

Additional observations from a re-analysis of the deposited data

How the results depend on the processing

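The share of all genes called is given above for the main fits, for most fits with the block and for the summed libraries. Where that share is not given, a count below cannot be read as a result about the members. Counts of called members between PreCFU-E and CFU-E depended most on the replicate block. In FL/FL mice 5 members were called, 17 with the block, 8 by DESeq2 and 14 with only the 6 libraries of that genotype. In KO/FL mice 5 were called, 14 with the block and 3 by limma with either pseudocount. In Lepr-Cre mice 3 were called and 10 with the block. Leaving out 1 library gave 2 to 5, 3 to 5 and 2 to 4. For Lepr-Cre against FL/FL in PreCFU-E 2 were called, 5 without the filter, 5 with the block, 1 in the fit of 18 libraries, 1 by limma with either pseudocount, and 1 to 2 leaving out 1 library. In CFU-E 3 were called, 5 without the filter, 5 with the block and 2 to 4 leaving out 1 library. In that comparison the letters were not taken to pair the groups, though their correlations of 0.118, 0.127 and 0.0877 were all above 0. With the block its 5 calls by edgeR were Ifitm3, higher, and Ifi27, Ifngr1, Ifngr2 and Irf7, lower. For Lepr-Cre against KO/FL in PreCFU-E 1 was called, 4 without the filter, 4 with the block, 2 by DESeq2, 0 by limma with either pseudocount and 0 to 3 leaving out 1 library. In CFU-E 1 was called, 3 without the filter, 3 with the block, 2 by DESeq2, 2 in the fit of 18 libraries, 0 by limma on log2(RPKM + 0.1) and 0 to 2 leaving out 1 library. The block changed no count for KO/FL against FL/FL or the interactions, which stayed at 0 in each alternative run.

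Between the sexes 4 members were called in PreCFU-E, 12 without the filter, 7 by DESeq2, 0 by limma with either pseudocount, 0 with each mouse's libraries summed and 0 to 7 leaving out 1 library. The share of all genes is not given here for the fits without the filter, by DESeq2 or with 1 library left out. In CFU-E 0 were called, 11 without the filter, 6 by DESeq2 and 0 to 5 leaving out 1 library. The summed counts and the fits without female libraries or single mice were chosen after seeing the data. The median correlation of 0.445 became 0.414 on log2(RPKM + 1), 0.449 with the DESeq2 size factors, 0.428 for genes of at least 5 CPM, 0.420 without H2-K1 and H2-D1, 0.181 without female libraries and 0.318 to 0.506 leaving out a library or mouse. No value changed sign. The causes were not tested. Mx1, Ifit3 and Ifitm1, at few counts, are limited by depth.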
